A study of Rattus norvegicus with 18 samples.

Results

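Transcript levels of 10 p53 target genes (Mdm2, Cdkn1a, Ccng1, Plk2, Plk3, Bbc3, Aen, Phlda3, Zmat3 and Sesn1) were followed in rat kidney cells exposed to the fungicide chlorothalonil. The genes were taken by symbol from the platform annotation of the array, and all 10 were among the 9149 genes tested. Each gene was read from its brightest probe set, a set of probes that reports a transcript, among those annotated with a single symbol. The other probe sets of the same genes served as a check.

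NRK-52E is an established epithelial line from rat kidney proximal tubule, labelled with the Osborne-Mendel genotype. Confluent cultures were exposed to 1.1 µM chlorothalonil, a chlorinated fungicide dissolved in 0.1% DMSO, or to the same amount of DMSO alone. According to the labels, that dose inhibits by 10% after 72 h. Treated and DMSO cultures were harvested for RNA after 6, 24 and 72 h, which gave 6 groups of 3 Affymetrix arrays labelled as biological replicates, 18 arrays in all. All groups share the single cell line, the medium and the vehicle, and no untreated culture or second dose was analysed here.

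The transcription factor p53 is held at a low level by Mdm2, which marks it for degradation. DNA damage and other stresses free it from this control, and it then activates genes that stop the cell cycle (Cdkn1a), trigger cell death (Bbc3), restrain growth (Sesn1) and feed back on p53 itself (Mdm2). Kidney tubule cells are known to use this pathway after toxic injury. Most of these genes also respond to other transcription factors.

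Binding of p53 is classically described at a pair of adjacent decamers, a motif of 2 × 10 bases known as the p53 response element. The 250 bases before the annotated start of a gene were read from the RefSeq promoter table, build GRCr8, which held 8 of the 10 genes. The decamer was searched without a mismatch. Its consensus reads the same on both strands, so a single search covers both. It was present in 4 of these 8 windows and in 6.64% of all 33469 windows of the same length. A pair of decamers with at most 1 mismatch in 20 bases was present before Cdkn1a and Ccng1, and in 0.0598% of all windows. With at most 2 mismatches Aen joined them, at 0.720% of all windows. These matches describe the sequence and are not evidence of binding in these cells.

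The windows of 5 genes, picked after their values were seen, are shown to set the match beside the response. All 4 windows with a decamer are among them, of which Cdkn1a and Aen were higher in treated cells at 24 h and Ccng1 and Sesn1 lower (with the scaling to control transcripts described below, Cdkn1a was at −0.0056). Plk2 was higher at every time and has no decamer in its window. Capitals mark the best decamer pair in Cdkn1a, Ccng1 and Aen, the single decamer in Sesn1, and in Plk2 the octamer TGACGTCA, the cyclic AMP response element, which reads the same on both strands and was present in 1.59% of all windows. Sequences run 5′ to 3′ on the strand of the gene and end at the base before its annotated start. The capitals begin at base −201 in Cdkn1a, −242 in Ccng1, −30 in Aen, −172 in Sesn1 and −66 in Plk2, counted back from −1.
Cdkn1a (chr20:7150682-7150931, plus strand): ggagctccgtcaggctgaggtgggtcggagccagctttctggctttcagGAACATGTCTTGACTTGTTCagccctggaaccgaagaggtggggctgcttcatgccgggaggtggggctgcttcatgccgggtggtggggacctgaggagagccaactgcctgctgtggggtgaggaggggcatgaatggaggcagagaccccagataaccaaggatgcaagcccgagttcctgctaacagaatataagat
Ccng1 (chr10:25684877-25685126, minus strand): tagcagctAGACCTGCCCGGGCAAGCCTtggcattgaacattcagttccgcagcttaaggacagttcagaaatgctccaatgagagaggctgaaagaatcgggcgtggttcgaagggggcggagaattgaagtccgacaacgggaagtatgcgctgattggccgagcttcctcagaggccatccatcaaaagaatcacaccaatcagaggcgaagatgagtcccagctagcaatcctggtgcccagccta
Aen (chr1:142224283-142224532, plus strand): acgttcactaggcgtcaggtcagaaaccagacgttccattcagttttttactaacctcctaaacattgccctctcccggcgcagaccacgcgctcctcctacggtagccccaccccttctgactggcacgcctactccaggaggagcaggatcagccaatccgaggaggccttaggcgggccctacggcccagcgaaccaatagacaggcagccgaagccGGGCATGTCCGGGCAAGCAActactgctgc
Plk2 (chr2:43702286-43702535, plus strand): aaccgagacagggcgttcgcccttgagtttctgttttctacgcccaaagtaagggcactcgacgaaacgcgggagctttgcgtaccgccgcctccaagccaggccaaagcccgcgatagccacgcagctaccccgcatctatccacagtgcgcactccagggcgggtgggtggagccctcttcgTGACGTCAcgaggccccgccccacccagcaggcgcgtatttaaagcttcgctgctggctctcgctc
Sesn1 (chr20:46948469-46948718, plus strand): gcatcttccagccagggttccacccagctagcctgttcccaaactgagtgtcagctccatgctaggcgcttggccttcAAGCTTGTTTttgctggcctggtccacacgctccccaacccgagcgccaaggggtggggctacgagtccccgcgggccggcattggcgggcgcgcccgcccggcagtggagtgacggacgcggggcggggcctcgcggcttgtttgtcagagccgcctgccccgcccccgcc
The AP-1 motif TGANTCA, which also reads the same on both strands, was present in none of the 8 windows and in 6.34% of all windows.

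All values below are deposited log2 values, so that a difference of 1 is a 2-fold change. Treated and DMSO arrays were compared with limma in 1 model over the 18 arrays, with Benjamini-Hochberg adjustment across all 9149 genes. A gene is called at an adjusted p under 0.05, and differences are given as treated minus DMSO with their standard error (SE). Values at or under log2 4 are treated as background.

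**Figure D1:**
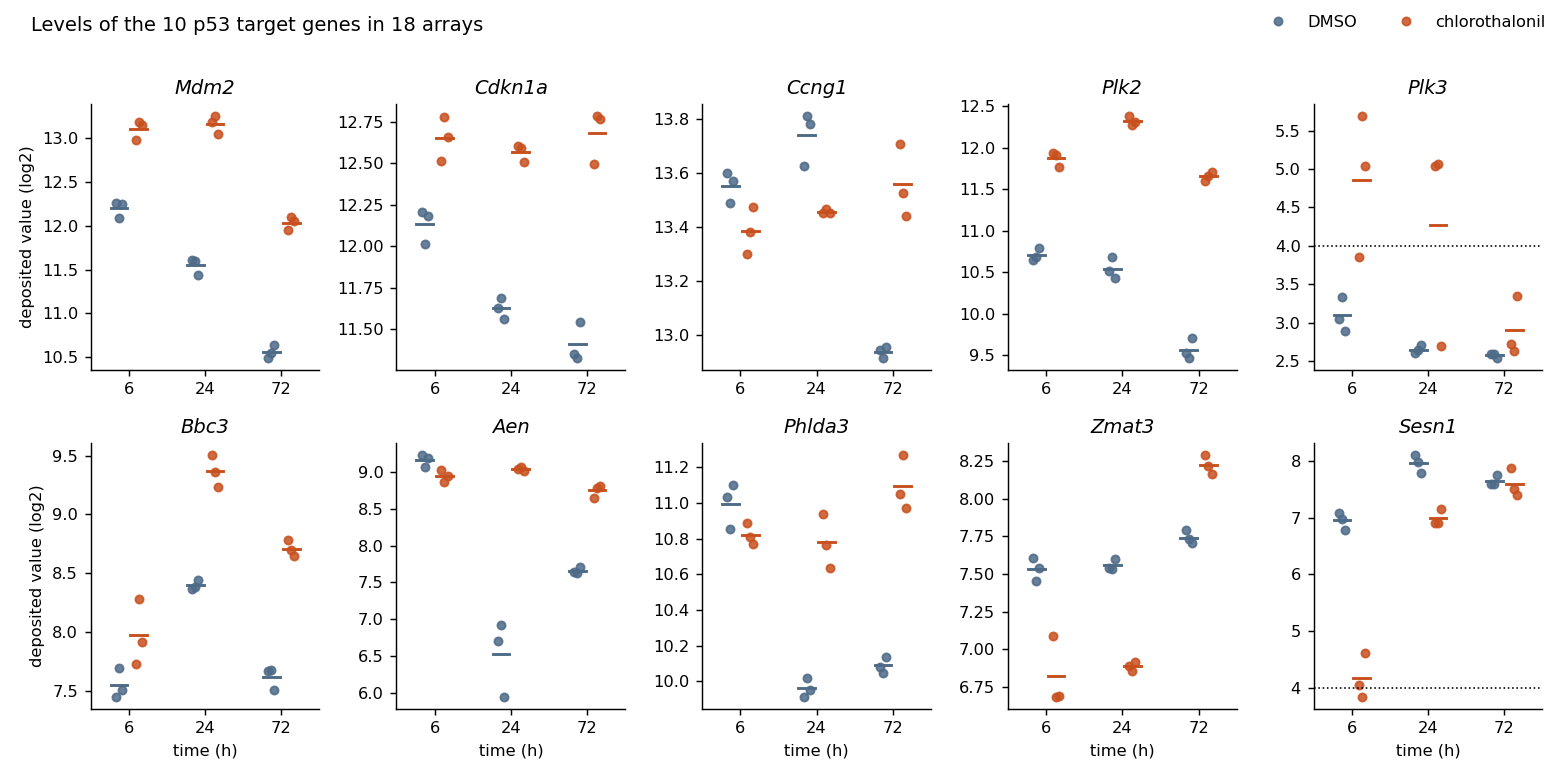
Deposited log2 value (vertical axis, a separate range for each gene) of the 10 genes against time in hours (6, 24 and 72, evenly spaced). Each point is an array, bars are the means of 3 arrays, orange is chlorothalonil, blue is DMSO, and the dotted line is background at log2 4. In the probe sets shown, the 9 treated arrays lie above all 9 DMSO arrays for Plk2 and Cdkn1a (not so in the second Cdkn1a set). The share of all genes with such a separation was not counted. The DMSO level of Mdm2, Cdkn1a and Plk2 is lowest at 72 h.

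At 6 h, 7 of the 10 genes were called. Cdkn1a, Mdm2, Plk2, Plk3 and Bbc3 were higher in treated cells, and Sesn1 and Zmat3 were lower. Over all genes tested, 59.6% were called at that time, 27.8% higher and 31.8% lower, so a count of 7 is near the background share. At 24 h all 10 were called, against 70.1% of all genes. The 7 higher genes were Cdkn1a, Mdm2, Aen, Plk2, Plk3, Phlda3 and Bbc3 (39.1% of all genes were higher), and the 3 lower ones were Ccng1, Sesn1 and Zmat3 (31.1% were lower). At 72 h, 8 genes were called and all 8 were higher, against 64.3% called, 37.2% higher and 27.0% lower over all genes. Plk3 and Sesn1 were the uncalled genes at 72 h. Plk3 passed the filter on low values through treated arrays alone, so its calls are a description. Without it, 4 genes were higher and 2 lower at 6 h, and 6 higher and 3 lower at 24 h. Leaving out DMSO replicate 2 at 6 h raised the lower count at that time from 2 to 4, with Ccng1 and Phlda3 added.

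The median difference of the 10 genes was 0.13 at 6 h, 0.96 at 24 h and 1.05 at 72 h, beside −0.0097, 0.057 and 0.074 over all genes tested. Without Plk3 the members' medians were −0.17, 0.94 and 1.09. With Plk3 taken at its bound against background, 1 of the 10 genes was called at least 2-fold higher at 6 h (Plk2). At 24 h there were 3 (Mdm2, Aen and Plk2) and at 72 h 6 (Cdkn1a, Mdm2, Aen, Plk2, Phlda3 and Bbc3). With the scaling to control transcripts described below, Cdkn1a, Aen, Phlda3 and Bbc3 were not called at 72 h. The share of all genes at least 2-fold higher was not counted, so these counts only describe the members.

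The directions of the calls above hold on the deposited scale, on which each array is set against its own distribution. Control transcripts with poly-A tails, spiked into the RNA before labelling, were brighter in treated than in DMSO arrays by 0.55 at 6 h, 0.95 at 24 h and 0.60 at 72 h. Scaling each array to these 27 control probe sets moved the median of all genes to −0.56, −0.89 and −0.53. It also cut the share of higher genes among all called genes to 7.08% at 6 h, 5.76% at 24 h and 10.4% at 72 h, where it had been 46.7%, 55.7% and 57.9%. Of the 10 genes, 1 was then called higher and 5 lower at 6 h, 4 higher and 3 lower at 24 h, and 2 higher and 0 lower at 72 h. Of all 9149 genes, 266 were then called higher and 3489 lower at 6 h, 358 and 5860 at 24 h, and 388 and 3360 at 72 h. Whether equal amounts of control were added to equal RNA was not tested. The rescaling takes the same amount off every gene within a comparison, so the position of each gene relative to the median of all genes is the same on both scales. In bulk RNA, a smaller share of cells with a transcript and less transcript per cell cannot be told apart.

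**Figure D2:**
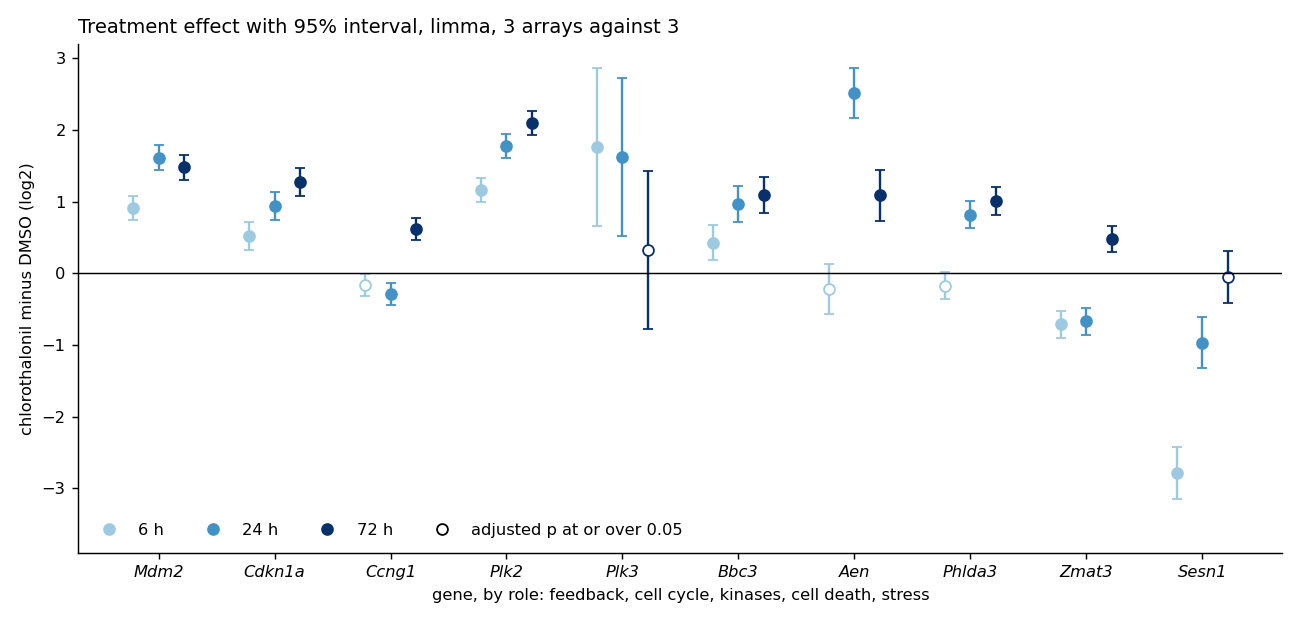
Treated minus DMSO difference in log2 units (vertical axis) for the 10 genes, ordered by role, at 6 h (light), 24 h (mid) and 72 h (dark blue). Bars are 95% intervals from limma with 3 arrays against 3, and open circles mark an adjusted p of 0.05 or more. Mdm2, Plk2, Cdkn1a and Bbc3 lie above 0 at all 3 times on the deposited scale, whereas with poly-A scaling Cdkn1a turns to −0.031 at 6 h and −0.0056 at 24 h and Bbc3 to −0.12 at 6 h. Sesn1 starts at −2.78 and ends at −0.052 (−3.33 and −0.65 with poly-A scaling).

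Mdm2, the ubiquitin ligase that limits p53, was the feedback gene of the set. At 6 h its DMSO arrays read 12.26, 12.09 and 12.25, and its treated arrays 12.97, 13.19 and 13.16. At 24 h they read 11.61, 11.60 and 11.43 in DMSO and 13.18, 13.25 and 13.05 after treatment. At 72 h the DMSO arrays read 10.49, 10.54 and 10.64 and the treated arrays 11.95, 12.10 and 12.05. The groups did not overlap at any time. The difference was 0.91 (SE 0.080, limma adjusted p = 2.0e-07) at 6 h, 1.61 (SE 0.080, adjusted p = 1.9e-10) at 24 h and 1.48 (SE 0.080, adjusted p = 9.0e-10) at 72 h, in fold terms 1.88, 3.06 and 2.79. With poly-A scaling it was 0.36 at 6 h, no longer called (adjusted p = 0.32), 0.66 at 24 h (adjusted p = 0.043) and 0.88 at 72 h (adjusted p = 0.013). In order of mean level, treated cells at 24 h and 6 h came first and their arrays overlapped. DMSO at 6 h and treated cells at 72 h came next, also overlapping, and DMSO at 24 h and 72 h were lowest. The treated level at 72 h thus overlapped the DMSO level at 6 h.

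Mdm2 has 3 probe sets with a single symbol, and all of them were called higher at all 3 times. Their sizes disagreed most at 72 h, where the chosen set gave 1.48 and the others 0.74 (SE 0.060) and 2.38 (SE 0.22). The set with 2.38 also fell furthest in DMSO cells, from 9.97 ± 0.33 (SD, n = 3) at 6 h to 6.49 ± 0.46 at 72 h. A change of the treatment effect from 6 to 72 h was called higher in the chosen set (0.57) and in that set (0.99), but lower in the remaining one (−0.31).

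Cdkn1a encodes p21, an inhibitor of cyclin-dependent kinases and the main arm of p53 in cell cycle arrest. At 6 h the DMSO arrays read 12.21, 12.01 and 12.18 and the treated arrays 12.52, 12.78 and 12.66. The 24 h values were 11.63, 11.69 and 11.56 in DMSO and 12.60, 12.59 and 12.51 in treated cells. At 72 h they were 11.35, 11.33 and 11.55 in DMSO and 12.50, 12.78 and 12.77 in treated cells. In this chosen set, every one of the 9 treated arrays, from 12.50 to 12.78, lay above every DMSO array, of which the highest was 12.21. The treated groups overlapped one another in level, while the DMSO level was lower at each later time. The difference was 0.52 (SE 0.091, limma adjusted p = 0.00018) at 6 h, 0.94 (adjusted p = 2.5e-07) at 24 h and 1.27 (adjusted p = 1.7e-08) at 72 h, with the same SE. With poly-A scaling the difference was −0.031 at 6 h and −0.0056 at 24 h, no longer called, and 0.67 at 72 h (adjusted p = 0.061).

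A second Cdkn1a probe set gave larger differences, 1.39 (SE 0.32) at 6 h, 1.16 at 24 h and 1.89 at 72 h, and was called at each time on the deposited scale. Its level in treated cells was not steady: it fell from 12.49 ± 0.34 (SD, n = 3) at 24 h to 10.99 ± 0.32 at 72 h, while in DMSO it went from 11.33 ± 0.17 to 9.10 ± 0.55. The DMSO level of this set did not fall from 6 to 24 h, with means of 11.21 and 11.33. Its treatment effect went from 1.39 to 1.16 in that step, a change of −0.24 (SE 0.46, limma adjusted p = 0.67), where the chosen set gave 0.43. Direction and call against DMSO agreed between the probe sets, but the course over time in treated and in DMSO cells did not. In the second set the treated arrays of 72 h (10.81, 10.80 and 11.37) lay below a DMSO array of 6 h (11.85). The full separation of treated from DMSO arrays over all times thus held in the chosen set alone.

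Ccng1 encodes cyclin G1, which recruits a phosphatase that activates Mdm2. At 6 h its DMSO arrays read 13.60, 13.49 and 13.57 and its treated arrays 13.30, 13.38 and 13.48. At 24 h the DMSO arrays read 13.63, 13.81 and 13.78 and the treated arrays 13.45, 13.47 and 13.45. At 72 h the readings were 12.94, 12.91 and 12.95 in DMSO and 13.71, 13.53 and 13.44 in treated cells. Treated arrays lay below DMSO at 6 and 24 h and above them at 72 h. The difference of −0.17 (SE 0.072) at 6 h missed the threshold in limma (adjusted p = 0.055), and quantile normalization, among other settings, brought it past (adjusted p = 0.010), as did poly-A scaling (−0.72, adjusted p = 0.045). At 24 h it was −0.28 (adjusted p = 0.0025) and at 72 h 0.62 (adjusted p = 2.5e-06), where poly-A scaling left 0.021. Between 24 and 72 h the mean moved from 13.46 to 13.56 in treated cells and from 13.74 to 12.94 in DMSO cells.

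Plk2 and Plk3 encode polo-like kinases that act in stress and checkpoint responses. For Plk2 at 6 h, the DMSO arrays read 10.64, 10.68 and 10.79 and the treated arrays 11.93, 11.92 and 11.77. The 24 h arrays read 10.51, 10.68 and 10.43 in DMSO and 12.38, 12.28 and 12.31 after treatment. At 72 h the values were 9.53, 9.47 and 9.70 in DMSO and 11.60, 11.67 and 11.71 after treatment. As for the chosen set of Cdkn1a, the lowest of the 9 treated arrays (11.60) stood above the highest DMSO array (10.79). The difference was 1.17 at 6 h (SE 0.078, limma adjusted p = 1.3e-08), 1.78 at 24 h (adjusted p = 5.7e-11) and 2.09 at 72 h (adjusted p = 2.8e-11), or 4.26-fold at the last time. It was above 0 with poly-A scaling too, at 0.62 (adjusted p = 0.087), 0.83 and 1.49. The treated level was highest at 24 h.

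Plk3 was near background, and the 4 of 18 arrays that exceeded log2 4 were all treated. At 6 h the treated arrays read 3.85, 5.68 and 5.03 against 3.05, 3.34 and 2.90 in DMSO. At 24 h they read 5.04, 5.07 and 2.70 against 2.60, 2.64 and 2.70, so that 1 treated array lay among the DMSO arrays. At 72 h all 6 arrays were at background, at 2.72, 2.63 and 3.35 in treated and 2.59, 2.59 and 2.54 in DMSO cells. Taken as bounds against background, the treated mean was at least 1.81-fold higher at 6 h and at least 1.21-fold higher at 24 h. Since the filter kept Plk3 for its treated arrays, its calls in limma support nothing further. The one at 24 h was lost without treated replicate 1 (adjusted p = 0.062), without treated replicate 2 (adjusted p = 0.062) and when values under log2 4 were set to 4 (adjusted p = 0.057).

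Bbc3, Aen, Phlda3 and Zmat3 belong to the arm of cell death and its control. Bbc3 encodes PUMA, which inhibits the survival proteins of the Bcl-2 family. At 6 h its DMSO arrays read 7.45, 7.69 and 7.50 and its treated arrays 7.73, 8.28 and 7.91. At 24 h the DMSO arrays read 8.36, 8.38 and 8.44 and the treated arrays 9.50, 9.36 and 9.23. At 72 h they read 7.67, 7.67 and 7.50 in DMSO and 8.78, 8.70 and 8.64 after treatment. Unlike Cdkn1a, Bbc3 was highest at 24 h in both treated and DMSO cells. The difference was 0.43 (SE 0.12, limma adjusted p = 0.0050) at 6 h, 0.97 (adjusted p = 2.3e-06) at 24 h and 1.09 (adjusted p = 1.0e-06) at 72 h. With poly-A scaling it was −0.12 at 6 h, 0.020 at 24 h and 0.49 at 72 h, none of them called. Fitted on the 6 arrays of 6 h alone, the first difference had an adjusted p of 0.051.

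Aen encodes a nuclease that enhances apoptosis. At 6 h its DMSO arrays read 9.22, 9.07 and 9.19 and its treated arrays 9.02, 8.87 and 8.94. At 24 h the DMSO arrays fell to 6.70, 6.93 and 5.95 and the treated arrays read 9.04, 9.07 and 9.01. At 72 h the DMSO arrays read 7.65, 7.63 and 7.71 and the treated arrays 8.65, 8.79 and 8.82. In this chosen probe set the treated level thus stayed between 8.65 and 9.07 while the DMSO level dropped and partly returned. The difference was −0.22 at 6 h (SE 0.17, limma adjusted p = 0.27), 2.51 at 24 h (adjusted p = 3.6e-09), or 5.71-fold, and 1.09 at 72 h (adjusted p = 3.8e-05). With poly-A scaling it was −0.77 at 6 h, then called (adjusted p = 0.031), 1.57 at 24 h, and 0.49 at 72 h, no longer called (adjusted p = 0.18). A second probe set gave 0.42, 2.55 and 0.63, so the sign at 6 h depended on the probe set and the call at 24 and 72 h did not. In that second set, DMSO was just above background at 24 h (4.10 ± 0.054, SD, n = 3) and at 72 h (4.03 ± 0.027). Its treated mean fell from 6.66 at 24 h to 4.66 at 72 h, so the course over time differed between the sets.

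Phlda3 encodes a protein that holds back the survival kinase Akt. Its DMSO arrays read 11.03, 10.85 and 11.10 at 6 h, 9.91, 10.02 and 9.95 at 24 h, and 10.08, 10.05 and 10.14 at 72 h. Its treated arrays read 10.89, 10.81 and 10.77, then 10.94, 10.77 and 10.64, then 11.05, 11.27 and 10.97. Treated and DMSO arrays overlapped at 6 h and stood apart at 24 and 72 h, with the drop again on the DMSO side. The difference was −0.17 (SE 0.090, limma adjusted p = 0.11) at 6 h, 0.82 (adjusted p = 9.0e-07) at 24 h and 1.01 (adjusted p = 1.6e-07) at 72 h. Poly-A scaling gave −0.72 at 6 h, then called (adjusted p = 0.044), −0.13 at 24 h (adjusted p = 0.71), and 0.41 at 72 h, no longer called (adjusted p = 0.27).

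Zmat3 encodes a zinc finger protein that binds RNA. Its DMSO arrays read 7.61, 7.45 and 7.54 at 6 h, 7.54, 7.53 and 7.60 at 24 h, and 7.79, 7.73 and 7.71 at 72 h. Its treated arrays read 7.09, 6.69 and 6.69, then 6.89, 6.86 and 6.91, then 8.29, 8.21 and 8.16. Here the DMSO level was nearly flat and the treated level moved, from below DMSO at 6 and 24 h to above it at 72 h. The difference was −0.71 (SE 0.087, limma adjusted p = 5.6e-06), then −0.67 (adjusted p = 5.8e-06), and 0.48 at 72 h (adjusted p = 0.00021), which poly-A scaling turned to −0.12.

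Sesn1 encodes sestrin 1, which restrains the growth kinase mTORC1 and limits oxidative damage. At 6 h its DMSO arrays read 7.08, 6.98 and 6.79 and its treated arrays 4.05, 3.84 and 4.61. At 24 h the DMSO arrays read 8.10, 7.98 and 7.79 and the treated arrays 6.91, 6.91 and 7.15. At 72 h the values were 7.60, 7.59 and 7.74 in DMSO and 7.88, 7.50 and 7.40 in treated cells. Sesn1 had the most negative difference of the set at 6 h, with a mean of 4.17 in treated against 6.95 in DMSO cells, and 2 of 3 treated arrays above background. At 72 h the treated arrays lay on both sides of the DMSO arrays on the deposited scale. The difference was −2.78 (SE 0.17, limma adjusted p = 4.8e-09) at 6 h, or 6.89-fold lower, −0.97 (adjusted p = 0.00011) at 24 h and −0.052 at 72 h (adjusted p = 0.81, 95% interval −0.41 to 0.31). With poly-A scaling the difference was −3.33 at 6 h and −1.92 at 24 h, both called, and −0.65 at 72 h (limma adjusted p = 0.070). A second, dimmer probe set was at background in all treated arrays. It gave −1.16 at 24 h, where its 3 DMSO arrays were above background, and no direction at 6 and 72 h, where neither group had a mean above it.

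**Figure D3:**
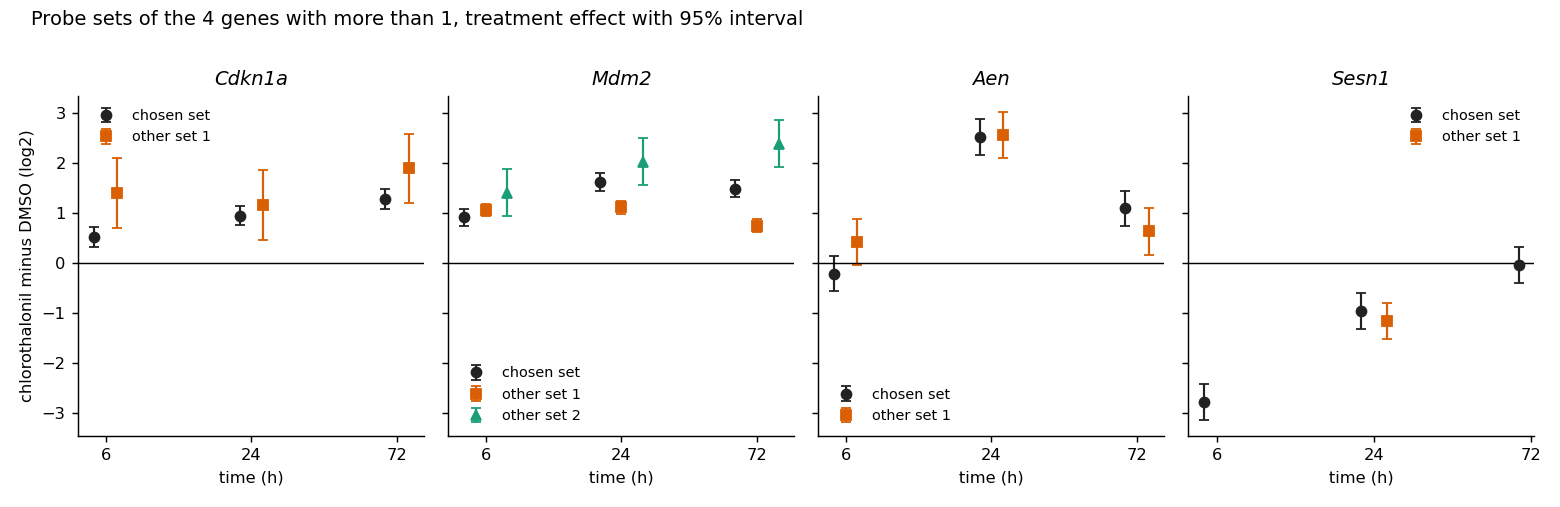
Treated minus DMSO difference in log2 units (vertical axis) at 6, 24 and 72 h for each single-symbol probe set of Cdkn1a, Mdm2, Aen and Sesn1. Points are differences of 3 against 3 arrays and bars 95% intervals from limma. The second Sesn1 set is shown at 24 h only, since neither of its groups had a mean above background at 6 and 72 h. The sets shown agree in direction except for Aen at 6 h (−0.22 and 0.42).

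Whether the treatment effect itself changed between times was tested as the difference of differences. From 6 to 24 h it moved upward for 7 of the 10 genes and downward for 0. Over all genes, 39.6% moved upward, which was 62.9% of those called. The sizes ran from 0.43 for Cdkn1a (SE 0.13, limma adjusted p = 0.0098) to 2.73 for Aen (SE 0.23, adjusted p = 2.0e-07), and Ccng1, Plk3 and Zmat3 missed the threshold. Among other probe sets, that of Aen was called upward in this step (2.14). Those of Mdm2 (0.051 and 0.62), Cdkn1a (−0.24) and Sesn1 (−0.29, near background) were not called. From 24 to 72 h the treatment effect in the chosen sets moved upward for 5 genes (27.9% of all genes). It moved downward for Aen (−1.42, limma adjusted p = 0.00011, where 29.8% of all genes moved downward). The 5 were Zmat3 (1.15), Sesn1 (0.92), Ccng1 (0.90), Cdkn1a (0.33) and Plk2 (0.31). Cdkn1a and Plk2 lost this call, which left 3, when any 1 of 5 arrays was left out: treated or DMSO replicate 2 at 24 h, treated replicate 3 at 72 h, or DMSO replicate 1 or 2 at 72 h. From 6 to 72 h, 37.4% of all genes moved upward, which was 63.4% of those called. Among the members the treatment effect moved upward for 9 genes, with Plk3 the exception. The largest value was that of Sesn1, 2.73 (adjusted p = 2.3e-07). In this step the other sets of Cdkn1a (0.50, limma adjusted p = 0.37) and Aen (0.21, adjusted p = 0.58) were not called. An Mdm2 set was called downward (−0.31), and the remaining Mdm2 set (0.99) and that of Sesn1 (0.89, near background) upward. With poly-A scaling these counts fell to 2 upward from 6 to 24 h and 3 upward from 24 to 72 h. From 6 to 72 h there were 2 upward and 1 downward. Over all genes on that scale, 353 of 1656 called genes moved upward from 6 to 24 h, or 21.3%. From 24 to 72 h it was 1344 of 1639, or 82.0%, and from 6 to 72 h 770 of 1366, or 56.4%. These comparisons share arrays: the 24 h arrays enter both steps.

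The DMSO cultures changed with time as well. From 6 to 24 h, Ccng1 (0.19), Sesn1 (a 2.01-fold rise) and Bbc3 (0.85) rose, 3 genes where 32.9% of all genes rose. Aen (−2.63), Phlda3 (−1.03), Mdm2 (−0.65) and Cdkn1a (−0.51) fell, 4 genes where 40.0% of all genes fell. With poly-A scaling the falls of Mdm2 (−0.48) and Cdkn1a (−0.34) were not called. The second Cdkn1a set gave 0.13, not called, while the other sets of Mdm2 and Aen were also called lower. From 24 to 72 h Aen rose (1.14, where 36.3% of all genes rose), though not in its second set (−0.070, not called). Mdm2 (−0.99), Plk2 (−0.97), Ccng1 (−0.80) and Bbc3 (−0.78) fell (24.3% of all genes fell). In the chosen sets of each of the 4 genes that fell in DMSO cells between 6 and 24 h on the deposited scale, the treated arrays of 6 and 24 h overlapped in level. This was not particular to them, since 7 of the 10 members were not called between 6 and 24 h in treated cells. The share of all genes with such an overlap was not counted.

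**Figure D4:**
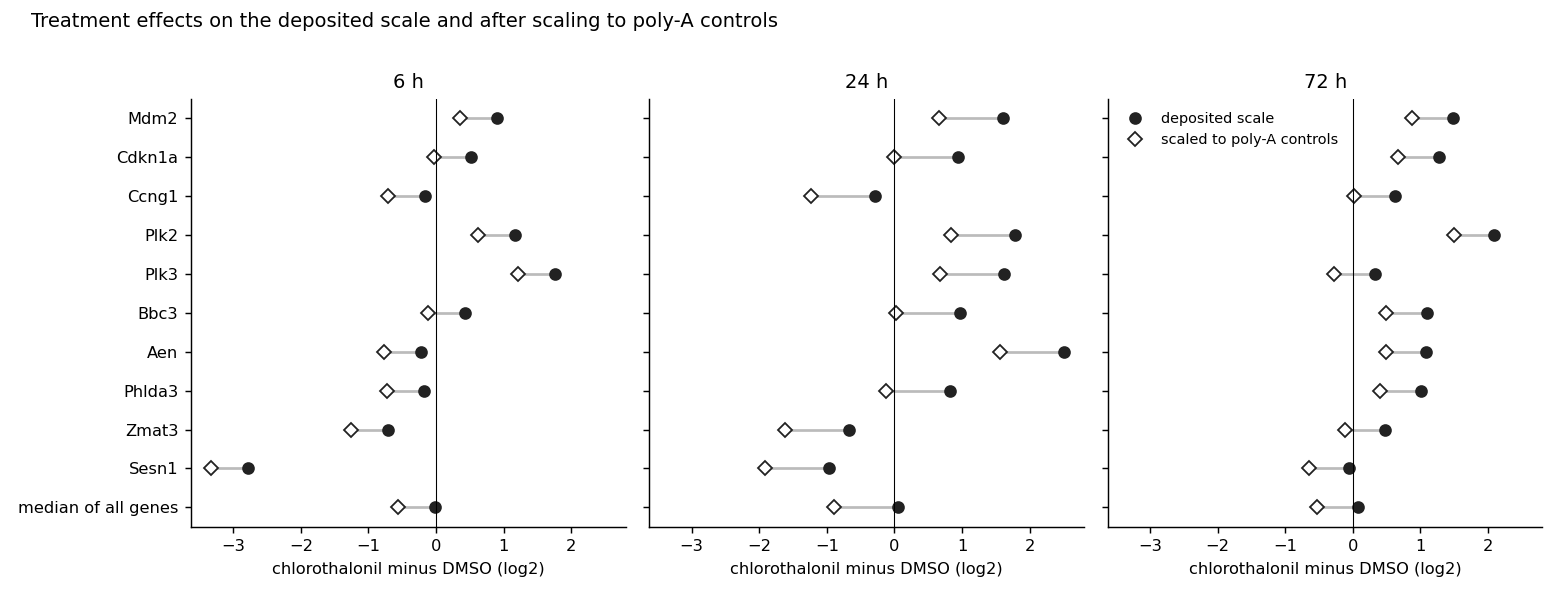
Treated minus DMSO difference in log2 units (horizontal axis) at 6, 24 and 72 h for the 10 genes and the median of all 9149 genes. Filled circles are the deposited scale and open diamonds the values after scaling to 27 poly-A control probe sets. All points of a time move left by the same amount, by 0.55 at 6 h, 0.95 at 24 h and 0.60 at 72 h, and Plk2 and Mdm2 are right of 0 on both scales at all 3 times.

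Other genes of the p53 pathway were taken from 7 lists by role, 70 genes, of which 50 were tested. At 6 h, 9 were called higher and 26 lower, against 27.8% and 31.8% of all genes. At 24 h the counts were 17 and 18, near the shares of all genes (39.1% and 31.1%). At 72 h they were 30 and 12, against 37.2% and 27.0%. Their median difference was −0.28, −0.059 and 0.53. With poly-A scaling the counts became 3 higher and 29 lower at 6 h, 0 higher and 35 lower at 24 h and 5 higher and 14 lower at 72 h. Over all 9149 genes, poly-A scaling gave 266 higher and 3489 lower, 358 and 5860, and 388 and 3360. On that scale lower calls thus outnumbered higher ones at 72 h in these lists and over all genes alike. The kinase Atm matched no probe set with that single symbol and was not analysed here. Atr, a related kinase, was uncalled at 6 and 24 h (0.22 and 0.070, turning to −0.33 and −0.88 with poly-A scaling) and higher at 72 h by 0.82 (limma adjusted p = 3.3e-06), a call lost with poly-A scaling (0.22, adjusted p = 0.57). Mdm4, the partner of Mdm2, differed by −0.035, −0.35 and −0.24 and was called at 24 h alone (adjusted p = 0.026). The mean of the Mdm4 probe sets gave 0.28, 0.16 and 0.41, so its direction depended on the probe set.

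The targets in metabolism, redox and stress had the largest positive differences at 6 h. Sesn2, a relative of Sesn1 that also restrains mTORC1, read 12.23, 12.47 and 12.46 in treated against 9.87, 9.58 and 10.03 in DMSO cells. Its difference was 2.56 (SE 0.11, limma adjusted p = 2.8e-10), opposite in sign to that of Sesn1 at the same time. Ddit4, another brake on mTORC1, was higher in treated cells by 2.14 (SE 0.12) at 6 h. Sesn2 was still higher by 1.21 at 24 h, where poly-A scaling left 0.27 (adjusted p = 0.43). Of the 6 tested genes of that list, 4 were higher and 1 lower at 6 h, 4 higher and 2 lower at 24 h, and 5 higher and 0 lower at 72 h. With poly-A scaling the counts were 2 and 1, 0 and 3, and 0 and 0. This list and those that follow are small and are read against the shares of all genes given for the 50. Their counts with poly-A scaling are read against the poly-A counts of all genes given there.

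Among the 3 tested cell cycle targets, Gadd45a, a stress protein that binds PCNA, was higher in treated cells at each time on the deposited scale. At 6 h its treated arrays read 12.96, 13.03 and 13.12 against 11.37, 11.39 and 11.42 in DMSO, a difference of 1.64 (SE 0.10, limma adjusted p = 7.5e-09). It was 0.77 at 24 h, which poly-A scaling turned to −0.18, and 2.43 at 72 h, or 5.40-fold. Sfn, known as 14-3-3 sigma, was higher by 0.99 at 6 h (0.44 with poly-A scaling, adjusted p = 0.22), and Gtse1, a mitotic protein that restrains p53, was 3.99-fold higher at 72 h. As with the chosen set of Cdkn1a, the treated level of Gadd45a varied little, from a mean of 12.71 to 13.04. Its DMSO mean ran from 10.27 at 72 h to 12.04 at 24 h.

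Of the 8 tested cell death targets, 1 was higher and 5 lower at 6 h, 4 higher and 2 lower at 24 h, and 4 higher and 2 lower at 72 h. The counts of the later times are near the shares of all genes, 39.1% higher and 31.1% lower at 24 h and 37.2% and 27.0% at 72 h. With poly-A scaling they were 0 and 5, 0 and 4, and 1 and 3. Bid, which carries death signals to mitochondria, was higher in treated cells by 1.42 (SE 0.14, limma adjusted p = 3.9e-07) at 24 h, a call lost with poly-A scaling (0.47, adjusted p = 0.16). From 6 to 24 h its mean went from 8.03 to 6.60 in DMSO and from 8.39 to 8.02 in treated cells. Tp53inp1, a cofactor in p53 signalling, was higher in treated cells by 1.61 at 72 h, and Apaf1, the core of the apoptosome, lower by 0.91. The 7 DNA repair genes split, with 1 higher and 3 lower at 6 h, 2 and 2 at 24 h, and 4 and 2 at 72 h (0 and 4, 0 and 5, and 1 and 2 with poly-A scaling). Mgmt, which removes alkyl groups from guanine, was higher in treated cells by 1.84 at 72 h. The endonuclease Ercc5 was lower in treated cells by 0.98 at 24 h. The polymerase Polk, at background in DMSO, was at least 1.04-fold higher at that time (0.75, and −0.20 with poly-A scaling).

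The 5 feedback genes gave 1 higher and 2 lower at 6 h, 3 and 1 at 24 h, and 1 and 2 at 72 h (0 and 2, 0 and 3, and 0 and 3 with poly-A scaling). Pml, which forms nuclear bodies that hold p53, was lower in treated cells by 1.21 at 6 h, and Ppm1d, a phosphatase that switches p53 off, by 0.78 at 72 h. Of the 10 regulators, 0 were higher and 6 lower at 6 h, where 27.8% and 31.8% of all genes were. The counts were 1 and 3 at 24 h (39.1% and 31.1% of all genes) and 3 and 6 at 72 h (37.2% and 27.0%). With poly-A scaling no regulator was higher at any time, and 6, 9 and 6 were lower, on a scale where calls over all genes were mostly lower too. Tp53bp2, which directs p53 to death genes, was lower in treated cells by 0.92 at 72 h, and the acetyltransferase Kat5 by 0.87.

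Genes known to be repressed through p21 and the DREAM complex are mostly needed in mitosis. Of the 11 tested, 0 were higher and 8 lower at 6 h, 1 higher (Mcm5, 0.51, and −0.43 with poly-A scaling) and 8 lower at 24 h, and 11 higher and 0 lower at 72 h. The shares of all genes were 27.8% and 31.8%, 39.1% and 31.1%, and 37.2% and 27.0%. With poly-A scaling the counts were 0 and 10, 0 and 10, and 1 and 0. The 8 genes that were lower at 24 h were higher at 72 h, whereas Birc5 (−0.15) and Aurka (−0.17) missed the threshold at 24 h (−1.10 and −1.11, both called, with poly-A scaling). The treatment effect moved upward from 24 to 72 h in 11 of 11 genes (27.9% of all genes). The sizes ran from 0.51 for Mcm5 to 1.98 for Cdc20 (limma adjusted p = 0.013 and 3.3e-08). With poly-A scaling it moved upward in 10 of them. On that scale most calls over all genes in this step were upward too, 1344 of 1639, or 82.0%. Top2a, the topoisomerase of dividing cells, differed by −1.22 (SE 0.090, limma adjusted p = 3.3e-08) at 6 h, −1.55 (adjusted p = 9.7e-10) at 24 h and 0.42 (adjusted p = 0.00088) at 72 h, which poly-A scaling turned to −0.19 (adjusted p = 0.64). Ccnb1, cyclin B1, differed by −1.25 at 6 h and the mitotic kinase Plk1 by −1.33. At 24 h the mitotic activator Cdc20 was lower by a difference of −1.07 and cyclin B2 (Ccnb2) by −0.94. Cdkn1a was higher in treated cells throughout on the deposited scale (0.52, 0.94 and 1.27, with −0.031 and −0.0056 at 6 and 24 h after poly-A scaling), including the time at which these genes were higher.

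**Figure D5:**
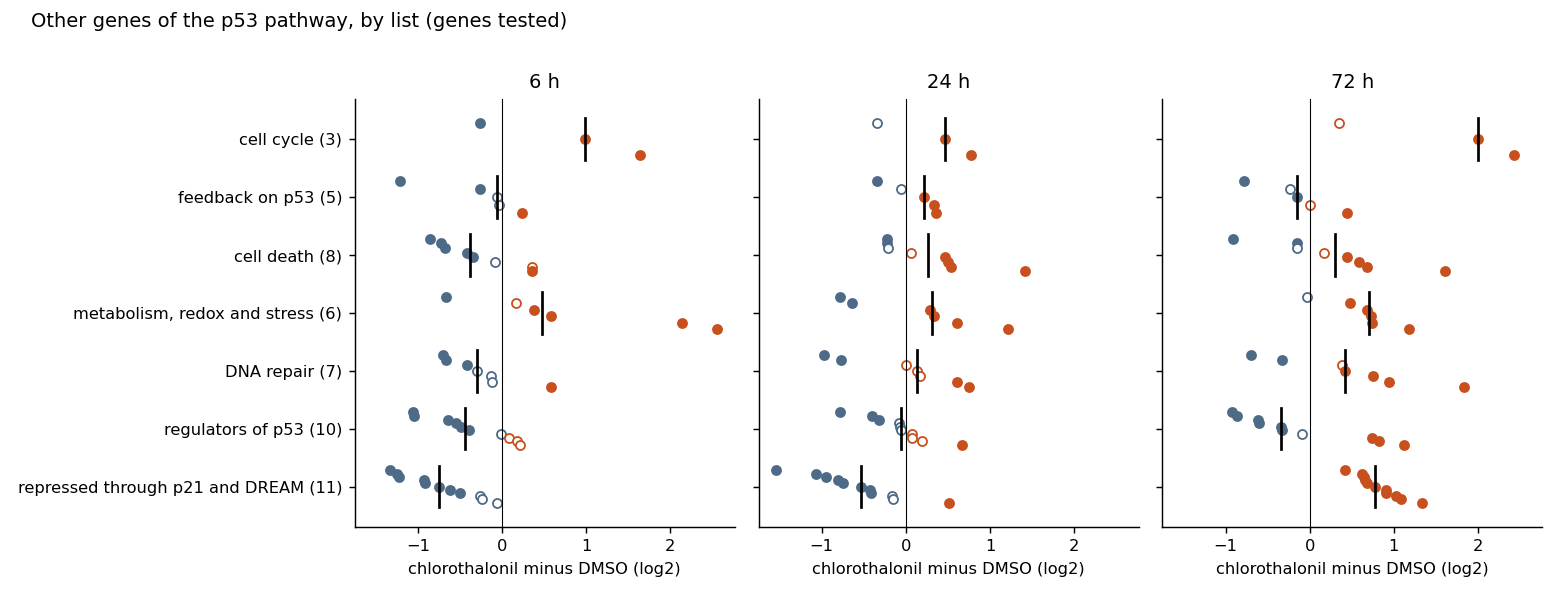
Treated minus DMSO difference in log2 units (horizontal axis) of 50 other p53 pathway genes in 7 lists, at 6, 24 and 72 h, on the deposited scale. Each circle is a gene, filled where its limma adjusted p is under 0.05, orange above 0 and blue below, and black bars are list medians. The list of genes repressed through p21 and DREAM has a median of −0.75 at 6 h, −0.53 at 24 h and 0.77 at 72 h, and with poly-A scaling the last becomes 0.17.

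Across the 18 arrays, the members with the most similar levels were Mdm2 and Plk2 (Pearson r = 0.926) and Cdkn1a and Plk2 (r = 0.920). Sesn1 and Zmat3 (r = 0.670) ran together and opposite to Mdm2 (−0.640 and −0.677). Among all tested genes, the closest to Cdkn1a were Csrp1 (r = 0.976), Hbs1l (0.974) and Isg20 (0.967), and the closest to Mdm2 were Mapre1 (0.982), Ubqln1 (0.982) and Vcf1 (0.980). For Sesn1 they were Znfx1 (0.974), Cbx8 (0.973) and Hyal2 (0.970). The 18 points are 6 groups of 3 arrays, so these values describe likeness over 6 conditions.

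The arrays were similar in overall distribution, with medians over all probe sets of 3.93 to 4.22 and 49.7% to 50.9% of probe sets above log2 4. The poly-A controls of DMSO replicate 1 at 24 h averaged 8.26, below the 9.28 and 9.44 of its fellow replicates. The proximal tubule label was checked against 10 markers of that cell type. Of these, 8 exceeded background in no array, among them the endocytic receptors Lrp2 and Cubn, while Ggt1 exceeded it in 15 arrays and Aqp1 in 3. Of 7 epithelial markers, Krt8 and Tjp1 were above background in all 18 arrays and 5, including Cdh1 and Epcam, in none. Among markers of other cell types, the fibroblast marker Col1a1 and the podocyte marker Wt1 were above background in all 18 arrays and the macrophage marker Cd68 in 9, and the 12 others with a probe set in none, among them the leukocyte marker Ptprc. The group means of Cd68 ran from 2.43 to 9.45, those of Col1a1 from 4.93 to 7.39 and those of Wt1 from 5.58 to 7.71. The part of these markers in the results on the p53 targets was not tested.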

How the data were processed

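RNA from 18 NRK-52E cultures was measured on Affymetrix rat arrays, from 6 µg of total RNA each per the labels' protocols. The deposited log2 values of 31099 probe sets came from GCRMA, as the authors' processing notes state, of a version not given in the sources used. GCRMA usually corrects background by probe sequence and gives all arrays 1 common distribution, which removes a change shared by most transcripts and compresses low values.

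Array titles gave treatment, time and replicate number. Probe sets above log2 4 in at least 3 of the 18 arrays and annotated with 1 symbol were kept (12693), and each of 9149 genes took its brightest set. Symbols were updated with the RefSeq gene table of GRCr8. Tests used limma 3.58.1 in R 4.3.3, two-sided, with 6 group means, 12 residual degrees of freedom, Benjamini-Hochberg adjustment and a threshold of 0.05, and were tested on simulated data. With 3 arrays a group, array number limits precision. A group with all 3 arrays at or under log2 4 counts as background, and a fold against it is the brighter group's mean against log2 4.

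The 10 members, the pathway lists and the marker lists were chosen with earlier results of these data known. Named are the 10 members, per time the 4 highest and 4 lowest called other pathway genes whose groups do not overlap (a selection of which the text describes), Mdm4 and Atr at every time, Mcm5, Birc5 and Aurka at 24 h and Top2a at 72 h (picked after their values were seen), and the 3 genes most like Cdkn1a, Mdm2 and Sesn1. Alternatives changed the scaling, filter, floor, weights, probe set rule, arrays in the fit and replicate terms, and left out each array in turn.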

Additional observations from a re-analysis of the deposited data

Results flagged for a closer look

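In their chosen probe sets, the treatment effect of 9 of the 10 genes differed between times by limma's test of the difference itself (adjusted p under 0.05). Plk3, which was near background, was the exception. Values are the later minus the earlier treatment effect in log2 units.

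From 6 to 24 h the effect of Aen moved by 2.73, that of Sesn1 by 1.82, Phlda3 by 0.99, Mdm2 by 0.71 (0.051 and 0.62, neither called, in its other probe sets), Plk2 by 0.61, Bbc3 by 0.54 and Cdkn1a by 0.43 (−0.24, not called, in its second probe set). For Sesn1 a negative difference shrank, from −2.78 to −0.97, and for the others a positive difference grew or appeared on the deposited scale. From 24 to 72 h the effect of Zmat3 moved by 1.15, Sesn1 by 0.92, Ccng1 by 0.90, Cdkn1a by 0.33 and Plk2 by 0.31, and that of Aen by −1.42. The calls of Cdkn1a and Plk2 in this step were lost when any 1 of 5 arrays was left out. Zmat3 and Ccng1 changed sign in this step, from lower to higher in treated cells, on the deposited scale; with poly-A scaling Zmat3 was at −0.12 and Ccng1 at 0.021 at 72 h.

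From 6 to 72 h the effect of Sesn1 moved by 2.73, Aen by 1.31, Zmat3 by 1.19, Phlda3 by 1.18, Plk2 by 0.93, Ccng1 by 0.79, Cdkn1a by 0.76, Bbc3 by 0.66 and Mdm2 by 0.57. The other sets of Aen (0.21) and Cdkn1a (0.50) were not called in this step. Of the other Mdm2 sets, −0.31 was called downward and 0.99 upward. In the chosen sets of Cdkn1a, Aen and Phlda3 the treated levels of 6 and 24 h overlapped and the DMSO levels differed. In Zmat3 the DMSO arrays of 6 and 24 h overlapped and the treated level rose between 24 and 72 h, from 6.89 to 8.22.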

How the results depend on the processing

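Counts of called genes, both directions together, stayed within 1.5 times their reported value under every alternative run other than poly-A scaling. Counts of 1 direction moved further. Lower members at 6 h went from 2 to 5 with array weights (Aen, Ccng1 and Phlda3 added) and to 4 without DMSO replicate 2 at 6 h. Upward effect changes from 24 to 72 h went from 5 to 3 without any 1 of 5 arrays, and downward ones from 1 to 2 (Plk3) without treated replicate 3 at 24 h. Downward effect changes from 6 to 72 h went from 0 to 1 (Plk3) with array weights, with only the groups compared, and without treated replicate 1 at 6 h or 3 at 24 h. Members higher in DMSO from 24 to 72 h went from 1 to 2 (Zmat3) with the first pair of these settings and without treated replicate 1 at 6 h. Scaling to the 27 poly-A control probe sets gave 2 members at 72 h, 3748 of all genes and 19 pathway genes, 2, 3 and 3 members for the effect changes from 6 to 24, 24 to 72 and 6 to 72 h, and 4 members for DMSO from 6 to 24 h. Leaving out 3 control sets that were at background (chosen after seeing the data, 24 sets) gave 2 members at 72 h, 3776 genes and 19 pathway genes, 2, 3 and 2 members for the effect changes, 4 for DMSO, and 5 members at 24 h. Without DMSO replicate 1 at 24 h, poly-A scaling gave a median of −0.51 over all genes and 0.37 over the members at 24 h, against −0.89 and 0.0071 with it, and 4 higher and 1 lower member at 72 h, against 2 and 0.

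Treated minus DMSO values of single genes given in the text that turned sign with poly-A scaling, first with all and then with 24 control sets, were Cdkn1a at 6 h (−0.031 and −0.098) and 24 h (−0.0056 and −0.13), Bbc3 at 6 h (−0.12 and −0.19), Phlda3 at 24 h (−0.13 and −0.26), Gadd45a at 24 h (−0.18 and −0.30), Polk at 24 h (−0.20 and −0.33), Atr at 6 h (−0.33 and −0.40), Atr at 24 h (−0.88 and −1.004), Plk3 at 72 h (−0.27 and −0.34), Zmat3 at 72 h (−0.12 and −0.19), Top2a at 72 h (−0.19 and −0.26) and Mcm5 at 24 h (−0.43 and −0.56). With 24 sets alone, Bbc3 at 24 h (−0.11) and Ccng1 at 72 h (−0.049) turned. Aen at 6 h turned with its other probe set (0.42) and the mean of sets (0.10). Mdm4 at 6 h turned with quantile normalization (0.048), median centring (0.057), the mean of sets (0.28, and 0.16 at 24 h, 0.41 at 72 h) and single arrays left out (−0.098 to 0.037). Sesn1 at 72 h ranged from −0.20 to 0.045 over single arrays left out, and its other probe set read 0.012 there with all 6 arrays at background, which gives no direction. Birc5 at 24 h ranged from −0.28 to 0.043 over single arrays left out, the last without treated replicate 2, and Aurka at 24 h was called without DMSO replicate 3 (−0.26, adjusted p = 0.022). The cause was not tested.

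With single arrays left out, members called numbered 7 to 9 at 6 h, 9 to 10 at 24 h and 8 at 72 h. Same-numbered treated and DMSO arrays correlated at −0.044 to 0.30 in their deviations, and differently numbered ones at −0.22 to 0.21. These overlapping ranges do not settle whether the replicate numbers pair the samples. With the number as a replicate block, 7, 10 and 8 members were called, and no member's call at the 3 times changed. The number of arrays limits the precision, and nearness to background that of Plk3 and of Sesn1 at 6 h.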
